A study of Mus musculus with 96 samples.

Results

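Glycine receptors and gephyrin were described from 6 genes in single neurons of the lateral superior olive (LSO), an auditory brainstem nucleus. The members were the rows of the deposited table of TPM values, a transcript level normalised for depth and gene length, whose Ensembl identifiers carry the symbols Glra1, Glra2, Glra3, Glra4, Glrb and Gphn in Gencode vM21, 6 of 38887 rows. The libraries came from Patch-seq, in which a neuron was recorded in whole-cell mode, its cytoplasm was drawn into the pipette, and the RNA was sequenced. The slices came from C57BL/6J mice of both sexes around postnatal day 11, with no genetic change and no treatment in any group. Groups followed the firing pattern in the labels. Principal neurons (pLSOs) fired either only at the onset of a depolarising step (Onset) or throughout it (Sustained), and lateral olivocochlear neurons (LOCs) fired after a delay. A negative control was a pipette that touched the slice without harvesting a neuron.

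Of the 86 labelled neurons, 80 were used, beside 8 of the 10 negative controls. The 52 pLSOs among them comprised 41 Onset and 11 Sustained cells, and the other 28 were LOCs. The other 8 libraries were left out because, when these data were examined earlier, their label did not match the study's cluster assignment or their values differed between tables. That selection rested on measured values, and values with all labelled libraries are given beside the results on Glrb. The labels name no animal, so neurons of a group may share an animal and each group counted as 1 sample. No test was run between groups. The SD is over neurons, and the 95% intervals of shares are exact binomial (Clopper-Pearson). They cover counting error over neurons only and treat the neurons as independent, although neurons may share an animal. Among the reads, PCR copies cannot be told from independent molecules. For a share of 0 the limit given in the text is instead that of 3 counts of the total, which is slightly below the exact upper bound.

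Glycine receptors are chloride channels assembled from 5 subunits around a central pore. Alpha subunits, encoded by Glra1 to Glra4, carry most of the glycine binding and can form channels alone. The beta subunit, encoded by Glrb, does not form a functional channel by itself and binds gephyrin, the product of Gphn, a scaffold protein that anchors receptors at inhibitory synapses and also takes part in molybdenum cofactor synthesis. Channels with the alpha 2 subunit are common early in development and close more slowly than those with alpha 1, which predominate in the mature brainstem. LSO principal neurons receive a strong glycinergic input from the medial nucleus of the trapezoid body.

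In genome build GRCm38 with Gencode vM21, Glra1 lies on the minus strand of chromosome 11 (55514238 to 55608198) and Glra2 on the minus strand of chromosome X (165129017 to 165327393). Glra4 is also on the minus strand of chromosome X (136757674 to 136780141). Glra3 is on the plus strand of chromosome 8 (55940460 to 56130070), Glrb on the minus strand of chromosome 3 (80843599 to 80913660) and Gphn on the plus strand of chromosome 12 (78226379 to 78684772). RefSeq start regions were at hand for 5 of the 6 genes. The regions of Glra2 and Glrb are shown because Glra2 was the member found mainly in LOCs and Glrb the member that differed most between the firing types of pLSOs. Each runs 5′ to 3′ over 300 bases, from 250 before to 50 after the annotated start, on the minus strand of GRCm38.p6, at chrX:165327344-165327643 and chr3:80913611-80913910. Capitals mark every match, on either strand, to TATAAA, the core of a TATA box, to a CCAAT box, or to GGGCGG, the core of a GC box, and no matches overlapped:
Glra2: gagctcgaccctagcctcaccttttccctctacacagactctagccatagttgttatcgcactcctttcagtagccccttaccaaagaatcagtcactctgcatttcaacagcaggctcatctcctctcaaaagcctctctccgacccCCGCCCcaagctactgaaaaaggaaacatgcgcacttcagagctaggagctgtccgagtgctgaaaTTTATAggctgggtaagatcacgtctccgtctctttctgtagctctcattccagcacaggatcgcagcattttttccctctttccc
Glrb: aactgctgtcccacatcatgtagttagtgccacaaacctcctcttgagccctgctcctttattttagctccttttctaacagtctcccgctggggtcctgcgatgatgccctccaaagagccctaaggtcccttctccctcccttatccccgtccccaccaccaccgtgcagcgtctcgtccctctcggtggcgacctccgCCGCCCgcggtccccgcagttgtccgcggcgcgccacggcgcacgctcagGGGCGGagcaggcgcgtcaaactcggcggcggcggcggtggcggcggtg
The Glra2 region held 1 match to the TATA box core and 1 to the GC box core, and the Glrb region held 2 to the GC box core. Over 32851 regions of the same length, 13.6% held the TATA box core, 37.4% the CCAAT box and 35.7% the GC box core. The Glrb region was GC-rich, with 65.7% G or C and 30 CpG dinucleotides, and the Glra2 region had 50.3% and 9, beside medians of 52.7% and 7 over all regions. The matches describe the letters only.

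The deposited values are whole numbers with nearly the same sum in every library, but they do not follow each gene's own length. Low values in a library are whole multiples of a step that depends on the row, as though gene lengths had been sorted by size while the rows stayed in identifier order. In the median neuron 1 read of Glra1 was worth 50.9 TPM, 1 read of Glra2 or Glra4 3.39 TPM, 1 read of Glrb 0.276 TPM, 1 read of Glra3 0.0962 TPM and 1 read of Gphn 0.0603 TPM. A value of 1 TPM therefore stood for about 3.62 reads of Glrb and 16.6 reads of Gphn, while a single Glra1 read was far above it. A gene keeps the same length in all groups and can be compared between them, but the common sum per library also rests on the sorted lengths. Group differences therefore depend on the scale, and for pLSOs against LOCs those on own gene length are also given below for the members compared. Genes cannot be compared with each other. Levels between genes are given below only after rescaling to each gene's own exon length. Reads recovered from the steps came to a median of 808950 per neuron (188313 to 3234230), and 2496 genes were detected in the median neuron (1175 to 6276). In the 8 negative controls the median was 821 detected genes (285 to 1271). In the 5 controls with a step the median of recovered reads was 145771. The controls were thus shallower than the neurons, which limits what a 0 in them can show.

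The labelled cell types were checked against fixed markers. The summed level of Spp1, Kcnh7 and Lpgat1 had a median of 618 TPM in Onset neurons, 220 TPM in Sustained neurons and 1 TPM in LOCs, and that of Calca, Ucn and Isl1 had a median of 0 TPM in both kinds of pLSO and 990 TPM in LOCs. Isl1 and Ucn were listed at 0 in all 52 pLSOs, but Calca was detected in 15 of them. Among the 28 LOCs, Lpgat1 was detected in 13, and Spp1 and Kcnh7 in 1 each. Of the 8 negative controls, 5 held Calca, 4 Spp1, 3 Lpgat1, 2 Ucn, 1 Kcnh7 and none Isl1. Markers of both neuron types were thus also present in controls. Rbfox3, Snap25, Syt1, Map2 and Tubb3 served as markers of neurons in general. Their summed level had a median of 1538 TPM in Onset neurons, 1092 TPM in Sustained neurons, 1043 TPM in LOCs and 1847 TPM in controls. Snap25 was detected in 7 of the 8 controls, Map2 in 5, Tubb3 in 2, and Rbfox3 and Syt1 in 0. Oligodendrocyte markers were present in every group, with median sums of 108 TPM in Onset neurons, 107 TPM in Sustained neurons, 234 TPM in LOCs and 3637 TPM in negative controls, and all 5 of 5 were detected somewhere in each. Astrocyte sums had medians of 35 to 42 TPM in the neuron groups, 97.5 TPM in the controls, and a highest value of 13459 TPM in 1 LOC. Their part in the member levels was not tested.

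Glra1, the adult alpha subunit, was found in pLSOs more often than in LOCs. It was detected, at 1 TPM or more, in 23 of 41 Onset neurons (56.1%, interval 39.7% to 71.5%), 7 of 11 Sustained neurons (63.6%, 30.8% to 89.1%) and 9 of 28 LOCs (32.1%, 15.9% to 52.4%). In Onset neurons it ranged from 0 to 7957 TPM with a median of 152 TPM, in Sustained neurons from 0 to 3631 TPM with a median of 210 TPM, and in LOCs from 0 to 4199 TPM with a median of 0 TPM. The groups overlapped over most of their range, and zeros were frequent in all of them. The median of recovered reads was 883326 in pLSOs and 723769 in LOCs, and that of detected genes 2560.5 and 2394. In neurons with at least 2000 detected genes, 61.4% of 44 pLSOs and 36.4% of 22 LOCs held Glra1. The part of depth in this difference was not tested.

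The Glra1 means were set by a few neurons. The mean was 981 ± 2054 TPM (SD, n = 41) in Onset neurons, 628 ± 1090 TPM (n = 11) in Sustained neurons and 316 ± 984 TPM (n = 28) in LOCs. Without the highest neuron of each group these became 806, 328 and 172 TPM. Every one of the 40 values above 0 in the used libraries with a step was a whole number of reads within 0.1 read, though this row was among those used to estimate the steps. Where detected, Glra1 rested on a median of 12 reads in Onset neurons, 11 reads in Sustained neurons and 5.99 reads in LOCs, with up to 436 reads in 1 Onset neuron. In 5 pLSOs and 2 LOCs it rested on 1 to 3 reads.

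The negative controls did not lack Glra1 entirely. It was at 0 in 7 of 8 controls and at 2806 TPM, or 18 reads, in the other (12.5%, interval 0.316% to 52.7%). The interval overlaps those of all neuron groups, so at this number of controls a background share of the size seen in LOCs could not be separated from 1 control in 8.

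Glra2, the subunit typical of immature receptors, showed the opposite distribution. It was detected in 11 of 28 LOCs (39.3%, interval 21.5% to 59.4%), 4 of 41 Onset neurons (9.76%, 2.72% to 23.1%), 0 of 11 Sustained neurons, which allows a share of up to 27.3%, and 0 of 8 negative controls, which allows up to 37.5%. The LOC values ran from 0 to 905 TPM with a median of 0 TPM, and the next highest were 418 and 372 TPM. In Onset neurons the highest was 456 TPM, followed by 35, 5 and 2 TPM. The mean was 76.9 ± 195 TPM in LOCs, 12.1 ± 71.3 TPM in Onset neurons and 0 in Sustained neurons. Without the highest neuron of each group it was 46.3 TPM in LOCs and 1.05 TPM in Onset neurons. Of the 15 neurons with Glra2, 5 held it at 1 to 3 reads.

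Glra3 and Glra4, the remaining alpha subunits, were close to absent at this depth. Glra3 was detected in 1 of 28 LOCs at 12 TPM, about 71.1 reads, and in none of 52 pLSOs, which allows up to 5.77%. That LOC also held Glra1 and Glra2. A value of 1 TPM stood for about 10.4 reads of Glra3 in the median neuron, so the limit for Glra3 does not cover neurons with few reads. Glra4 was detected in 0 of 80 neurons, which allows a share of up to 3.75%.

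Glrb, the beta subunit, was the member detected in the most neurons, 61 of 80, and its level differed most between the firing types of pLSOs. It was present in 37 of 41 Onset neurons (90.2%, interval 76.9% to 97.3%), 6 of 11 Sustained neurons (54.5%, 23.4% to 83.3%), 18 of 28 LOCs (64.3%, 44.1% to 81.4%) and 0 of 8 negative controls, which allows up to 37.5%. In Onset neurons Glrb ranged from 0 to 243 TPM with a median of 67 TPM. In the 11 Sustained neurons it was 0 in 5, and then 1, 3, 16, 17, 29 and 44 TPM. In LOCs it ran from 0 to 334 TPM with a median of 13.5 TPM. In the libraries used, the highest Sustained value lay below the Onset median, and the ranges overlapped. A left-out library labelled as Sustained held 141 TPM, above that median. The means were 84.8 ± 77.1 TPM in Onset neurons, 10 ± 14.9 TPM in Sustained neurons and 47.2 ± 71.9 TPM in LOCs, so the Onset mean was 8.48 times the Sustained mean and 1.80 times the LOC mean. With all labelled libraries the means were 79.05 TPM in 44 Onset neurons, 20.9 TPM in 12 Sustained neurons and 45.6 TPM in 30 LOCs, and the Onset mean was 3.78 times the Sustained mean and 1.73 times the LOC mean.

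Gphn, the anchoring scaffold, was detected in fewer neurons, but its threshold of 1 TPM asked for the most reads. It was found in 18 of 41 Onset neurons (43.9%, interval 28.5% to 60.3%), 6 of 11 Sustained neurons (54.5%, 23.4% to 83.3%), 8 of 28 LOCs (28.6%, 13.2% to 48.7%) and 1 of 8 negative controls at 1 TPM. The values ran to 26 TPM in Onset neurons, 108 TPM in Sustained neurons and 30 TPM in LOCs, with medians of 0, 5 and 0 TPM. The means were 4.85 ± 7.95, 22.2 ± 35.2 and 3.54 ± 7.19 TPM. The Sustained mean rested on 2 neurons at 108 and 70 TPM, and without the highest it was 13.6 TPM.

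**Figure D1:**
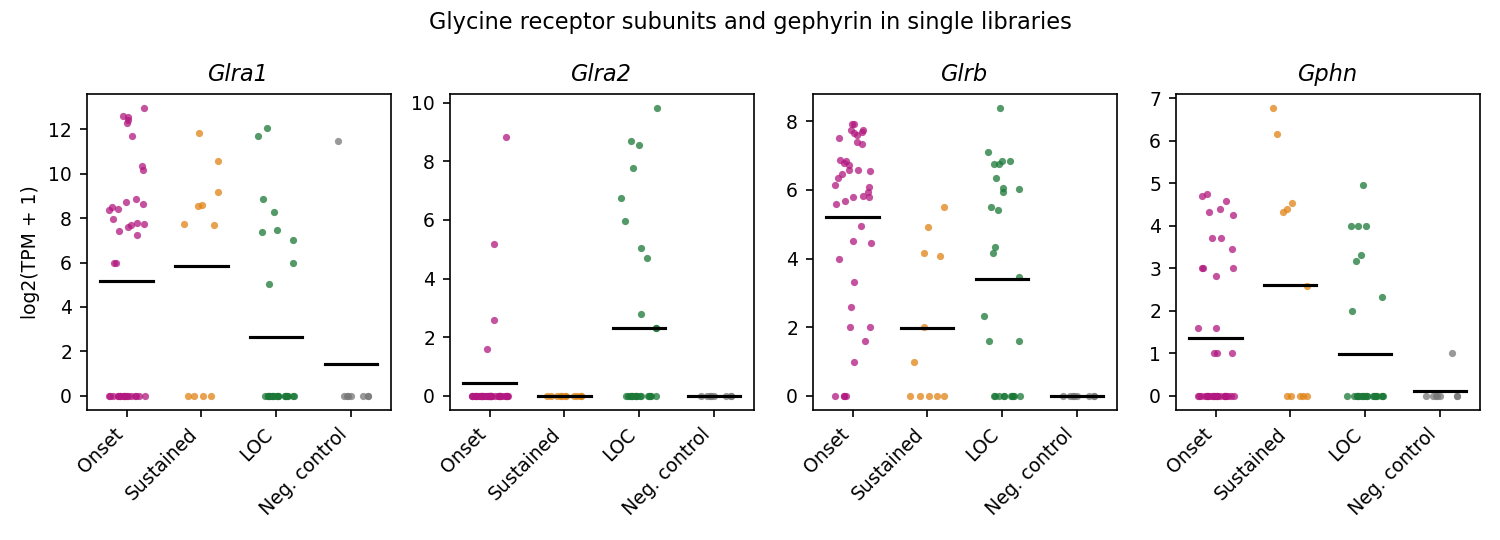
Level of 4 members in each library, as log2(TPM + 1), by group, with 1 point per library and a black line at the group mean. Glra1 is either at 0 or well above it, a gap set by the scale, since 1 read was worth 50.9 TPM in the median neuron. Glra2 points lie mainly in LOCs, and Glrb is above 0 in 37 of 41 Onset neurons but no higher than 44 TPM in the 11 Sustained neurons used.

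**Figure D2:**
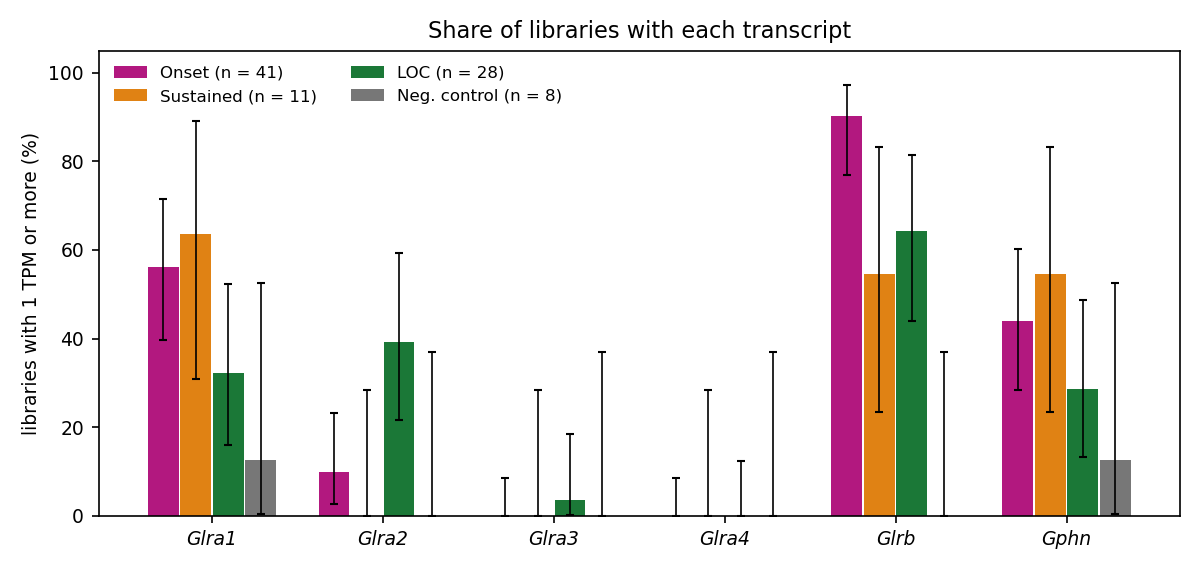
Share of libraries with 1 TPM or more of each member (%), by group. Bars start at 0 and whiskers are exact 95% binomial intervals, also for shares of 0, where they reach slightly above the limit of 3 counts. Glrb reached 90.2% in Onset neurons, Glra2 39.3% in LOCs, and Glra4 was at 0 in every group.

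After rescaling to each gene's own exon length and to the same total per library, the order of the members within a neuron type differed from that of the deposited values. In Onset neurons the rescaled mean was highest for Glrb at 288 ± 248 rescaled TPM (SD, n = 41), then Gphn at 96.1 ± 158, Glra1 at 36.2 ± 79.3 and Glra2 at 5.41 ± 31.8. In LOCs the order was Glrb at 149 ± 243, Gphn at 64.6 ± 136, Glra2 at 25.6 ± 61.2 and Glra1 at 10.1 ± 34.3. In Sustained neurons Gphn came first at 387 ± 649, followed by Glrb at 34.5 ± 54.0 and Glra1 at 22.6 ± 38.4. Each of these neighbours differed by less than the larger of their SDs over neurons, though not always by less than the smaller. On the deposited scale Glra1 had the highest mean of the 6 in all 3 neuron groups. For the rows of Glrb, Gphn and Glra3 the length behind the deposited value was taken from the sorted gene lengths and is approximate.

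The difference between pLSOs and LOCs was summarised as the difference of the mean of log2(TPM + 1). Its pseudocount of 1 TPM understates changes of genes with low values. By contrast a single read of Glra1, worth 50.9 TPM in the median neuron, weighs heavily, while 1 read of Gphn was worth 0.0603 TPM. The sizes of the differences of different members therefore also depend on these steps. Of the 6 members, 4 passed the filter of detection in at least 5% of neurons, and Glra3 and Glra4 did not. For Glra1 the pLSO mean was 5.31 ± 4.84 and the LOC mean 2.63 ± 4.10, a difference of 2.67. For Glrb the means were 4.52 ± 2.79 and 3.41 ± 3.03, a difference of 1.11. Glra1 and Glrb were thus at or above a difference of 1, as were 6.99% of the 10319 genes compared. Glra2 went the other way, with a pLSO mean of 0.35 ± 1.45, an LOC mean of 2.31 ± 3.35 and a difference of -1.96, and 4.68% of the genes were at -1 or below. The difference for Gphn was 0.63. Every one of these differences was smaller than the SD over neurons in at least 1 of the groups.

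The size of the Glrb difference depended on the Onset and Sustained neurons among the pLSOs. Against LOCs it was 1.80 for Onset neurons and -1.44 for Sustained neurons. Glra1 was higher than in LOCs on this scale in both, by 2.53 in Onset and 3.20 in Sustained neurons, and Glra2 was lower in both, at -1.87 and -2.31. These comparisons share the LOCs. In neurons with at least 2000 detected genes (44 pLSOs and 22 LOCs) the pLSO minus LOC difference of Glrb was 0.33, and with all labelled libraries it was 0.96. On the scale of own gene length the difference was 1.50 for Glra1, 1.57 for Glrb, 1.36 for Gphn and -1.46 for Glra2. Each of them was thus past 1 in size there, Gphn included, beside 16.7% of 10249 genes on that scale.

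Within pLSOs, Onset minus Sustained, the largest difference among the members was that of Glrb. Its mean log2(TPM + 1) was 5.21 ± 2.53 in Onset and 1.97 ± 2.25 in Sustained neurons, a difference of 3.24, which is larger than either SD, and 4.78% of the genes compared were at 1 or above. Of those genes, 99.9% had a lower value than Glrb. With all labelled libraries the difference was 2.45. Gphn had the opposite sign, with 1.36 ± 1.79 in Onset, 2.61 ± 2.71 in Sustained neurons and a difference of -1.25, beside 10.3% of genes at -1 or below. Its difference was -0.92 without the highest neuron of each group and -0.70 in neurons with at least 2000 detected genes, and it was -1.66 on the scale of own gene length. For Glra1 the difference was -0.67, and it lay between -0.92 and 0.10 under the alternatives tried. For Glra2 it was 0.44. The median number of detected genes was 2488 in Onset and 2618 in Sustained neurons, and the median of recovered reads was 972708 and 810976.

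**Figure D3:**
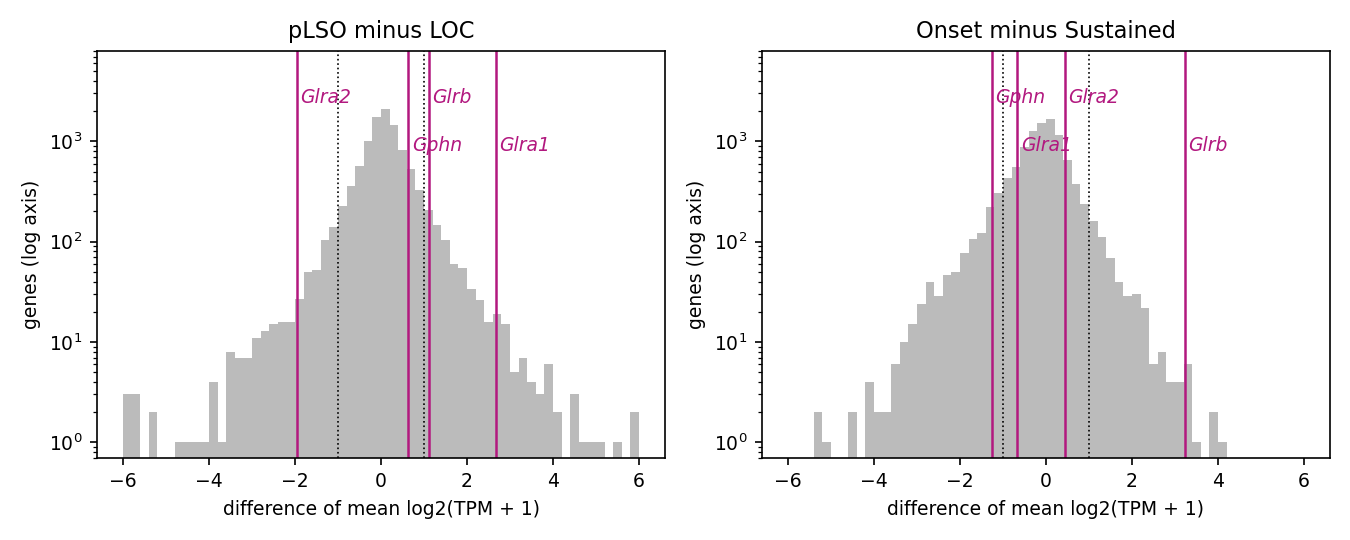
Difference of mean log2(TPM + 1) for 10319 genes detected in at least 5% of the 80 neurons, between pLSOs and LOCs (left) and between Onset and Sustained neurons (right), with the number of genes on a log axis, values beyond 6 drawn at 6 and dotted lines at -1 and 1. Coloured lines mark 4 members. Glra1 and Glra2 lie on opposite sides in the left panel, and Glrb lies near the right end of the right panel at 3.24.

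Combinations of subunits were counted in single neurons. Alpha 1 with beta, the pair of the mature synaptic receptor, was found together in 26 of 52 pLSOs (50.0%, interval 35.8% to 64.2%) and 9 of 28 LOCs (32.1%, 15.9% to 52.4%). All 9 LOCs with Glra1 also held Glrb, and 4 of the 30 pLSOs with Glra1 did not. Glra2 with Glrb was found in 9 of 28 LOCs and 4 of 52 pLSOs. Both alpha subunits were found in the same neuron in 4 LOCs and 2 pLSOs, and Glra2 without Glra1 in 7 LOCs and 2 pLSOs. Glra1 or Glra2 was thus present in 16 of 28 LOCs (57.1%, 37.2% to 75.5%) and 32 of 52 pLSOs (61.5%, 47.02% to 74.7%).

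Glrb stood without any alpha subunit in 15 pLSOs, 14 of them Onset neurons, and in 4 LOCs. The full set of an alpha subunit, Glrb and Gphn was detected in 14 of 52 pLSOs (26.9%, interval 15.6% to 41.02%) and 6 of 28 LOCs (21.4%, 8.30% to 40.95%). None of the 6 members was detected in 3 pLSOs and 7 LOCs. Since a gene near its threshold is missed in many libraries, the absence of a transcript in 1 neuron cannot be told apart from a level below detection.

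Across neurons the members were only loosely related to each other. Over the 80 neurons Spearman's rho lay between -0.13 (Glra1 and Glra2) and 0.19 (Glra1 and Gphn). Within the 28 LOCs it was 0.41 for Glra1 and Gphn, 0.36 for Glra2 and Glrb and 0.29 for Glra1 and Glrb, and within the 52 pLSOs all 6 pairs lay between -0.12 and 0.13. The level of Glra1 went with the number of genes detected in a library, with a rho of 0.35 over the 80 neurons. For Glrb that rho was 0.19, for Glra2 0.03 and for Gphn 0.02. Points in these relations share library depth.

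**Figure D4:**
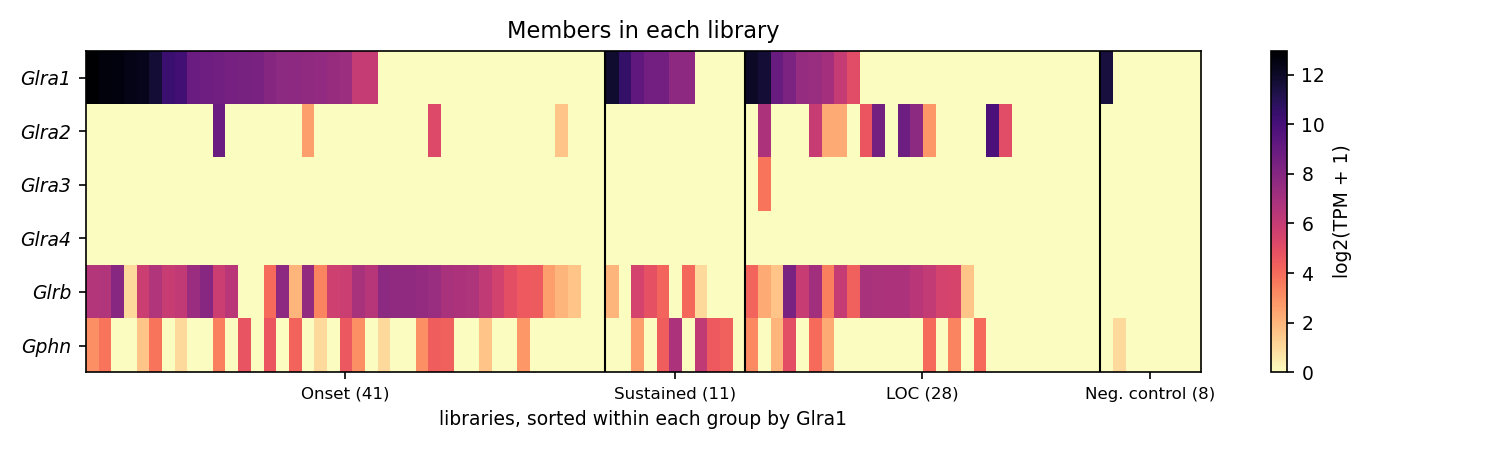
Level of the 6 members in each of 88 libraries, as log2(TPM + 1) from light (0) to dark, with libraries in columns sorted by Glra1 within each group and black lines between groups. Glra1 and Glrb coincide in 26 pLSOs and 9 LOCs, Glra2 bars cluster among LOCs, and Glrb is at 0 in all negative controls.

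The genes most alike to a member were those of highest Spearman's rho over the 80 neurons, among genes detected in at least 20% of them. For Glra1 these were Gfpt1 (0.44), Lztr1 (0.44) and Coprs (0.43), and for Glra2 Dgcr6 (0.52), Cct4 (0.42) and Snx1 (0.41). For Glrb they were Lrrn3 (0.43), Atp1b1 (0.42), which encodes the beta subunit of the sodium pump, and Slc3a2 (0.41). For Gphn they were Lias (0.43), the lipoic acid synthase, Spata7 (0.40) and Cnot1 (0.40). The ranking pooled both classes, and some of these values were lower within one of them. Dgcr6 had a rho with Glra2 of 0.17 in pLSOs and 0.48 in LOCs, Lztr1 one with Glra1 of 0.52 and 0.16, and Slc3a2 one with Glrb of 0.25 and 0.58. Each list holds the 3 highest of 4799 or 4800 genes compared and is a description of these neurons.

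The inhibitory currents of the same neurons were recorded before harvest, as spontaneous inhibitory postsynaptic currents (sIPSCs) at a holding potential of -70 mV. For each neuron 100 events were averaged, and the decay was the time constant from the peak to 37% of it. LOCs had smaller and slower sIPSCs than pLSOs. In all labelled neurons with a recording the amplitude was 29.1 ± 8.27 pA in 42 Onset neurons, 28.8 ± 13.6 pA in 12 Sustained neurons and 19.5 ± 4.20 pA in 29 LOCs. The decay time constant was 1.45 ± 0.308 ms, 1.94 ± 0.954 ms and 2.40 ± 0.756 ms in the same order. The 10 to 90% rise time was 0.400 ± 0.0852 ms, 0.557 ± 0.391 ms and 0.701 ± 0.356 ms. The ranges of the decay overlapped, at 0.84 to 2.21 ms in Onset neurons, 0.44 to 3.6 ms in Sustained neurons and 1.01 to 5.02 ms in LOCs.

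Within each class the members were set against these currents. Of the used neurons, 51 pLSOs and 27 LOCs had sIPSC values. In pLSOs the decay had a rho of -0.28 with Glra1, -0.14 with Glrb and -0.05 with Gphn, so none of the 3 members compared reached 0.3 in size, which 3.87% of 4621 genes did. Over these pLSOs the Glra1 value was -0.37 with ranks adjusted for the number of detected genes and -0.20 as Pearson's r on log2(TPM + 1), and with all labelled libraries it was -0.22. In Onset neurons alone (n = 40) the rho was -0.39, where 6.41% of 4793 genes reached 0.3 in size. The left-out Onset library cell_39 is not among these. It held 8546 TPM of Glra1 and had a decay of 2.21 ms, the longest of the labelled Onset neurons. In LOCs the decay had a rho of -0.34 with Glra1, 0.29 with Glra2, 0.09 with Glrb and 0.04 with Gphn. There 1 of 4 members reached 0.3 in size, beside 12.6% of 4450 genes. The rho of Glra1 with decay was thus negative in both classes. Unadjusted, it was below 0.3 in size over the pLSOs used, and in LOCs it was past a size that 12.6% of genes reached. In LOCs the sign for Glra2 was the opposite one. Among the 10 LOCs with Glra2 and a recording, however, the rho was -0.77, so the positive value over all LOCs came from the neurons at 0 against the others.

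For the amplitude, the rho in pLSOs was 0.21 with Glra1, -0.00 with Glrb and -0.09 with Gphn, and 4.03% of genes reached 0.3 in size. In LOCs it was -0.38 with Glra1 and 0.34 with Glra2, 0.06 with Glrb and -0.18 with Gphn, where 12.2% of genes reached 0.3. Among the 9 LOCs with Glra1 the rho with amplitude was 0.30, the opposite sign. For the rise time no member reached 0.3 in size in either class, with values from -0.19 to 0.06, beside 4.15% of genes in pLSOs and 12.2% in LOCs. The number of detected genes had a rho with the 3 current measures of -0.09 to 0.17 within the 2 classes. With many zeros and 1 value per neuron, relations of this size are a description.

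**Figure D5:**
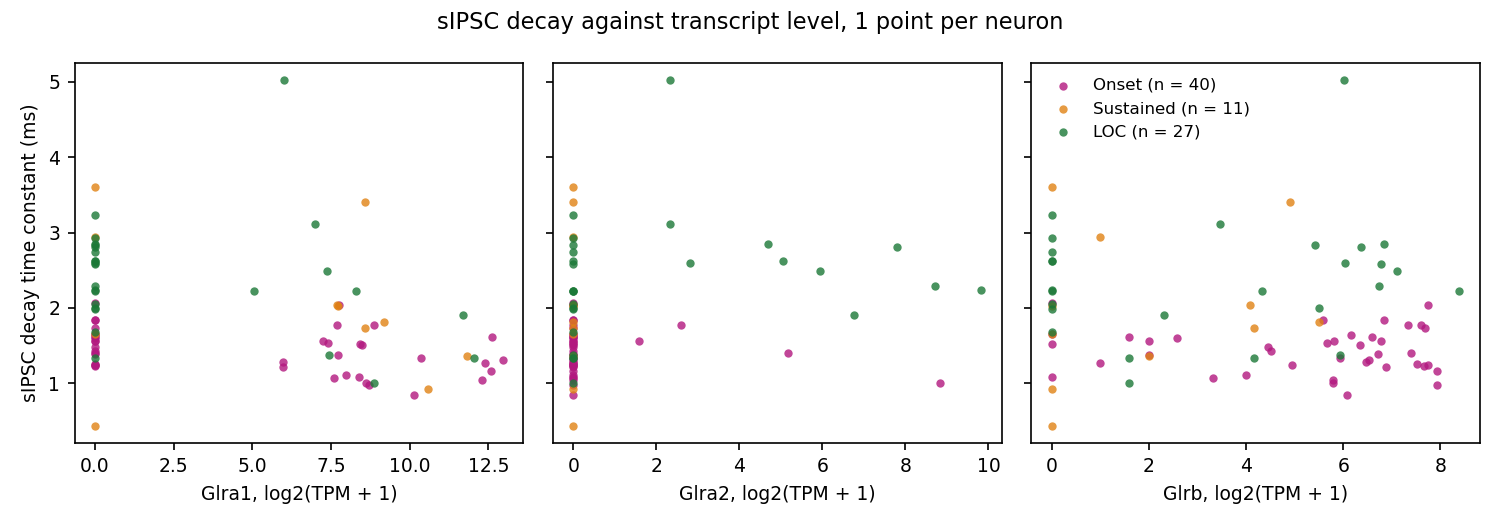
Decay time constant of the sIPSC (ms) against the level of Glra1, Glra2 and Glrb, as log2(TPM + 1), in 78 neurons, with 1 point per neuron coloured by group. Neurons at 0 span most of the range of decays, and the Onset neurons with the most Glra1 lie between about 1 and 2 ms.

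Genes around the receptor were taken from lists, and counted by a pLSO minus LOC difference of 1 or more in size, which 6.99% of all genes compared reached towards pLSOs and 4.68% towards LOCs. Of 12 listed partners of gephyrin and scaffold proteins of the inhibitory synapse, 8 passed the filter, with a median difference of 0.12 beside 0.07 over all genes compared. Dynll1, a dynein light chain that binds gephyrin, was the one detected most often, in 61 of 80 neurons (difference -0.93, and -0.47 on the scale of own gene length). Its row followed a length of 6 bases and that of Nlgn2 one of 962. Ranks by detection at 1 TPM within these lists therefore also depend on the scale. Of 8 genes for binding and trafficking of the receptor, all passed and 1 was past -1 (median 0.11), beside 4.68% of all genes. It was Kif5c, a kinesin motor (32 of 52 pLSOs, 23 of 28 LOCs, difference -1.25). Vcp, an ATPase, was detected most often, in 69 of 80 neurons (difference 0.00). Of the 8 negative controls, 5 held Vcp, 1 Dynll1 and 0 Kif5c.

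Chloride transport sets the direction of glycine currents. Of 8 listed genes 7 passed, with a median of 0.61. Of these 2 were past 1, beside 6.99% of all genes, and 1 was past -1, beside 4.68%. Wnk1, a kinase that regulates chloride cotransporters, was detected in 34 of 52 pLSOs and 12 of 28 LOCs (difference 1.34), and Stk39, the kinase below it, in 25 and 9 (1.01). Of the 8 negative controls, 3 held Wnk1 (37.5%) and 2 Stk39 (25%), beside 42.9% and 32.1% of LOCs. Clcn3, a chloride-proton exchanger of endosomes, was detected in 29 of 52 pLSOs, 23 of 28 LOCs (-2.20) and 2 of 8 controls, and on the scale of own gene length its difference was -0.68. Of 4 genes for glycine transport and vesicle loading 2 passed and none reached 1 (median -0.11). Slc6a5, the neuronal glycine transporter, was detected in 13 of 80 neurons.

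Of 8 genes of the molybdenum cofactor pathway, the other role of gephyrin, 2 passed and 1 was past -1, beside 4.68% of all genes. It was Mocs2, a molybdopterin synthase gene (17 of 52 pLSOs, 14 of 28 LOCs, 2 of 8 negative controls, difference -1.97), and the median of the 2 was -0.93. GABA-A receptors, the other chloride channels of inhibitory synapses, had 12 listed subunits, of which 10 passed, with a median of 0.15. Gabrd was higher in pLSOs (13 of 52 pLSOs, 1 of 28 LOCs, difference 1.13). Gabra2 (3 and 6, -1.68) and Gabrb1 (0 and 8, -1.33) were higher in LOCs. The difference of Gabra2 was -0.79 on the scale of own gene length.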

How the data were processed

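The samples were 86 LSO neurons and 10 negative controls. Per the study's methods, the authors trimmed reads with Trim Galore 0.4.2, aligned them to mm10 with STAR, marked duplicates with Picard 1.115, counted primary alignments over Gencode vM2 genes with featureCounts and calculated TPM. The deposited values are TPM rounded to whole numbers, treated here as a score because their scale does not follow each gene's own length. Electrophysiological values came from the labels.

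Gene names came from Gencode vM21 (37570 of 38887 rows). Read steps were estimated from low values in the first rows and applied through the sorted gene lengths, and depth ranges are given with the results. Steps, differences and rank correlations were tested on simulated data. Python 3.11.15, numpy 2.4.6, pandas 2.3.3 and scipy 1.17.1 were used. Detection meant 1 TPM or more, levels were compared as log2(TPM + 1) for genes present in 5% or more of the neurons, and rho was compared among genes detected in at least 20% of a class. No test was run, since no label names an animal. The members and lists were chosen with earlier results of these data known. Named genes were the 6 members, the 3 genes most alike to each member detected in at least 10% of neurons, every listed gene with a difference of 1 or more in size and the most often detected gene per list, and some results under this rule are not reported here. Alternatives covered the libraries, thresholds, pseudocounts, filters, depth, scale and correlation measure.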

Additional observations from a re-analysis of the deposited data

Results flagged for a closer look

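Among the 8 negative controls, Glra1 was at 2806 TPM in 1 and at 0 in the others, and Gphn was at 1 TPM in another and at 0 in the rest. A single value above 0 stands apart in this way by construction.

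Some of the 8 libraries left out of the comparisons held members above the highest negative control used. The library cell_39, labelled Onset, held 8546 TPM of Glra1, more than any of the 80 neurons used. The library cell_78 held 8 TPM of Glra3. Glrb was at 141 TPM in cell_54, labelled Sustained, and at 45 TPM in cell_85, and Gphn was at 19 TPM in cell_54. The negative control NC6 held 9 TPM of Glra2 and 4 TPM of Gphn.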

How the results depend on the processing

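Alternatives gave 497 values for 117 results. Means and differences were judged against the SD over neurons, which exceeds most means, so staying within it is no sign of stability. Within it, 12 of 82 means moved by over 1.5 times or to or from 0, medians aside, and so did 20 of 48 differences. Among the latter that of Glra1 for Onset minus Sustained changed sign, from -0.67 to 0.10 in neurons with at least 2000 detected genes. The Sustained mean of Glrb went from 10 to 20.9 TPM with all labelled libraries, the Onset mean of Glra2 from 12.1 to 1.05 TPM without its highest neuron, and the pLSO minus LOC difference of Glrb from 1.11 to 0.33 in neurons with at least 2000 detected genes. No paired analysis was possible because no label ties neurons across groups and no test was run.

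Detection at 20 recovered reads, the same for each member and chosen after seeing the data, gave Glra1 in 24.4% of Onset neurons, 18.2% of Sustained neurons, 23.1% of pLSOs, 7.14% of LOCs and 0 of 5 controls with a step. Glra2 was then in 2.44% of Onset neurons, 1.92% of pLSOs and 17.9% of LOCs, and Gphn in 0 of the 5 controls. Detection at 10 TPM gave Glrb in 75.6% of Onset neurons and 67.3% of pLSOs, Gphn in 21.95% of Onset neurons, 26.9% of pLSOs and 0 controls, and Gphn with Glrb in 15.4% of pLSOs. Without the control of highest Glra1, chosen after seeing the data, Glra1 was in 0 of 7 controls. With all 10 controls the means were 0.9 TPM for Glra2 and 0.5 TPM for Gphn.

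The percent of genes past 1 in size was 11.7 for pLSO minus LOC and 15.1 for Onset minus Sustained. It became 3.10 and 4.05 with no filter, 21.0 and 24.4 with a filter at 20% of neurons, 24.1 and 30.8 with a pseudocount of 0.1 TPM, and 3.73 and 5.05 with one of 10 TPM. With these pseudocounts Glrb for pLSO minus LOC was 1.70 and 0.58, and Gphn for Onset minus Sustained -1.69 and -0.67. Listed genes past 1 numbered 4 of gephyrin partners and 2 of trafficking with 0.1 TPM. With 10 TPM they numbered 0 and 0, 1 of chloride transport and 3 of GABA-A subunits, which was also 3 with the 20% filter. 

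In neurons with the gene only, the rho of Glra1 with amplitude in LOCs reversed to 0.30. The rho with decay was then -0.74 for Glra1, -0.77 for Glra2 and 0.46 for Glrb in LOCs and 0.49 for Gphn in pLSOs, and that with rise time was -0.52 for Glra2 and 0.35 for Glrb in LOCs and 0.40 for Gphn in pLSOs. The cause was not tested. Recovered reads per neuron limit what a value of 0 can show.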
